A study of Rattus norvegicus with 12 samples.

Results

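The 8 genes described here are the rat genes of MHC class II antigen presentation: RT1-Ba, RT1-Bb, RT1-Da, RT1-Db1, RT1-DMa, RT1-DMb, Cd74 and Ciita. They were taken by gene name from the non-control spots of the arrays, on which all 8 of 8 have a probe, among 34912 gene names in all. All but RT1-Ba, 7 of the 8, gave a signal well above background on 4 or more of the 12 arrays and were tested together with every other such gene name, 22718 in all. The tissue was calvaria, the bone of the skull roof, from rats aged 10 weeks, taken 72 h after a rectangle of 8 by 3 mm was cut into it. The cutting tool was either a bur drill or an Er:YAG laser (infrared light that removes hard tissue) at 20 Hz and 127 mJ per pulse. Control bone was not ablated. One protocol says that the periosteum was removed from it and another label calls it non-treated, and the labels used here give neither the strain nor whether the arrays of a group came from separate animals. Each group had 4 arrays. The limma p-values rest on the spread within groups, pooled over all 12 arrays and moderated over all genes tested. Part or all of that spread may be technical.

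MHC class II molecules are pairs of an alpha and a beta chain that carry peptides from the endosome to the cell surface, where CD4+ T cells read them. Dendritic cells, B cells and macrophages are the cells best known for making them. In the rat the classical pairs are RT1-B (chains Ba and Bb) and RT1-D (chains Da and Db1). Cd74, the invariant chain, fills the groove of new pairs, cathepsins trim it, and the DM pair (DMa and DMb) exchanges its last fragment for a peptide. Ciita is the transactivator that switches the whole set on, docking on factors bound to the X and Y boxes of class II promoters.

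The promoters are shown because these boxes are what the class II genes are known to share. RefSeq gives 300-base promoter windows (250 bases before to 50 after the start, build GRCr8) for 6 of the 8 genes, and none was used for RT1-DMb or Ciita. They were searched on both strands for the Y box core GATTGG, for the X box core AGNNACNG, and for an X core followed on the same strand by a Y core 5 to 40 bases after its end. The Y core was in 5 of the 6 windows and in 14.8% of all 33469 windows of this length. The X core was in 4 of the 6 and in 51.2% of all windows. The ordered pair was in 3 of the 6 (RT1-Da, RT1-Db1 and RT1-Bb) and in 0.956% of all. Below are the 130 bases before the start of 5 genes, 5′ to 3′ on the gene's strand, with Y cores of either strand and the X cores paired with them in capitals; a match is a run of letters and not a shown binding site.
RT1-Da, chr20:4515285-4515414, plus strand: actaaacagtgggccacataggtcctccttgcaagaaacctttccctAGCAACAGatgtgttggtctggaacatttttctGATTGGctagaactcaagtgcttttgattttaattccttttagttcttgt
RT1-Db1, chr20:4560163-4560292, minus strand: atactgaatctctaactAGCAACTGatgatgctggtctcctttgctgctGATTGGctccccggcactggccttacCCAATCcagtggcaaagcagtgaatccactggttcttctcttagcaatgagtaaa
RT1-Bb, chr20:4604119-4604248, minus strand: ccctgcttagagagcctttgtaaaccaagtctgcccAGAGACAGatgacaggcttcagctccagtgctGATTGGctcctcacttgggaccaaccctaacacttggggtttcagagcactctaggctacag
RT1-Ba, chr20:4576927-4577056, plus strand: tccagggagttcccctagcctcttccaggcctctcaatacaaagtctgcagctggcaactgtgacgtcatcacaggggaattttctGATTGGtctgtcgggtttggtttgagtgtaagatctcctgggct
RT1-DMa, chr20:4712336-4712465, minus strand: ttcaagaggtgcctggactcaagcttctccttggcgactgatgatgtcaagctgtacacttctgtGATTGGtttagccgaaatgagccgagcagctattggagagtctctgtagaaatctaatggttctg
In RT1-Da the X core begins 83 bases before the start and 25 bases separate it from the Y core. In RT1-Db1 it begins 113 bases before the start with a gap of 24 bases, and the capitals nearest the start are a Y core read on the opposite strand. In RT1-Bb it begins 94 bases before the start with a gap of 24. RT1-Ba and RT1-DMa hold a Y core with no X core of these letters at that distance, and the Cd74 window holds neither core.

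The array read each gene through probes of 60 bases. Those of the DM pair, which carried the calls below, and of RT1-Ba, which stayed dark, were as follows, with positions in build rn4 of the array design.
RT1-DMa, chr20:4844372-4844431, minus strand: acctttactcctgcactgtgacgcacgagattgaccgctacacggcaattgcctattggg
RT1-DMb, chr20:4830313-4830372, minus strand: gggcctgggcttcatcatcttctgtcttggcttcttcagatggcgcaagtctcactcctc
RT1-Ba, chr20:4700973-4701032, plus strand: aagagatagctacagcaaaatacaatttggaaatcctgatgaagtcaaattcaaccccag
Levels below are on a log2 scale on which 0 is the 75th percentile of the processed signal on that array; the level of one probe is not set against that of another.

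Each array detected 58.1% to 67.0% of probes, and arrays of the same group correlated at 0.947 to 0.984. The osteocyte genes Dmp1, Mepe and Phex were well above background on all 12 arrays. The controls shared 1 slide and scan, and the bur and laser arrays another, where each tool had its own slide column (1 for bur, 2 for laser). A slide or scan effect thus cannot be told apart from ablation, nor a column effect from the choice of tool. Over all genes, 9.26% rose and 13.0% fell in laser against control, and 9.99% rose and 16.2% fell in bur against control (limma, Benjamini-Hochberg adjusted p under 0.05). With 1 array left out, 1.98% to 17% of all genes rose with laser and 3.86% to 16.7% with bur. The counts of every gene list below are to be read beside these shares.

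The first question of the design is what cutting, by either tool, changed relative to unablated bone. All 7 measured class II genes had higher means in both kinds of ablated bone, by 0.47 to 0.95 on the log2 scale with laser and by 0.63 to 1.02 with bur. The peptide-loading genes RT1-DMa and RT1-DMb passed the test in both comparisons, and the other 5 passed in neither. Thus 2 of 7 rose and 0 fell in each comparison, against 9.26% of all genes that rose with laser and 9.99% that rose with bur. The median change of the 7 was 0.74 with laser and 0.85 with bur, against 0.02 and -9.68e-05 over all 22718 genes. The 2 comparisons share their control arrays, so they are not independent of each other. RNA was taken from whole pieces of bone, so more cells that make class II and more class II RNA per cell cannot be told apart. Levels are relative to the signal of the same array, so a smaller share of RNA from other cells cannot be told apart from these either. Of 13 measured erythroid and neutrophil marrow markers, 0 rose, while 10 fell with laser and 9 with bur. Whether the class II differences reflect such a change in cell make-up was not tested.

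RT1-DMa encodes the alpha chain of the loading pair. It was at -1.26, -0.81, -0.92 and -0.96 on control arrays 1 to 4. It was at 0.08, 0.77, 0.05 and -0.75 on the bur arrays, and at -0.63, 0.51, 0.23 and -0.24 on the laser arrays. Every ablated array was above every control array, but bur replicate 4 cleared control replicate 2 by little. The rise was 0.95 (1.94-fold, SE 0.31, 95% interval 0.27 to 1.63, limma adjusted p = 0.0475) with laser and 1.02 (2.03-fold, SE 0.31, limma adjusted p = 0.0336) with bur.

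RT1-DMb encodes the beta chain of the same pair. It was at -0.20, 0.24, 0.03 and 0.06 on the control arrays, at 0.68, 1.52, 1.03 and 0.46 on the bur arrays, and at 0.32, 1.16, 1.05 and 0.74 on the laser arrays. Again no ablated array reached down to the controls, the nearest being laser replicate 1. The rise was 0.79 (1.72-fold, SE 0.24, limma adjusted p = 0.0402) with laser and 0.89 (1.85-fold, SE 0.24, limma adjusted p = 0.0229) with bur. For both DM genes an exact two-sided permutation test of 4 against 4 arrays gave p = 0.0286 in each comparison, the smallest such a design allows. RT1-Da and RT1-Db1 reached the same value with bur. It is not adjusted and only restates that the groups did not overlap. Every laser array was above every control for 8.87% of all genes, and every bur array for 9.60%.

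RT1-Da and RT1-Db1 encode the chains of the classical RT1-D pair. RT1-Da was at 0.84, 1.73, 2.00 and 1.19 in control, at 2.07, 2.91, 2.33 and 2.03 in bur and at 1.45, 2.50, 2.36 and 2.46 in laser bone. All 4 bur arrays were above all controls, while laser replicate 1 lay among the controls. The difference was 0.89 (SE 0.31, limma adjusted p = 0.0536) with bur and 0.75 (limma adjusted p = 0.0986) with laser. RT1-Db1 had the same layout, at 0.65, 1.22, 1.39 and 0.88 in control, 1.59, 2.56, 1.84 and 1.56 in bur and 0.82, 1.94, 1.88 and 1.82 in laser bone. Its difference was 0.85 (SE 0.30, limma adjusted p = 0.0526) with bur and 0.58 (limma adjusted p = 0.168) with laser. Both were read by 2 spots per array, whose SD within an array was at most 0.11 for RT1-Da and 0.19 for RT1-Db1.

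Of the classical RT1-B pair only the beta chain was measured. RT1-Bb was at -1.18, -0.58, -0.51 and -0.92 in control, at -0.16, 0.78, -0.08 and -0.68 in bur and at -0.76, 0.39, 0.34 and -0.20 in laser bone. Bur replicate 4 and laser replicate 1 fell within the control range and the other 6 ablated arrays were above it. The difference was 0.76 (SE 0.33, limma adjusted p = 0.102) with bur and 0.74 (limma adjusted p = 0.117) with laser. The probe of its partner RT1-Ba was not well above background on any of the 12 arrays, with values between -9.78 and -8.83, so it gives no level or comparison.

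Cd74 had 10 spots per array and spot SDs of at most 0.072, making it the most densely sampled of the 8 genes. It was at 2.37, 2.90, 3.16 and 2.79 in control, at 3.12, 4.09, 3.52 and 3.01 in bur and at 2.60, 3.61, 3.56 and 3.4 in laser bone. The groups overlapped, with 2 bur arrays and 3 laser arrays above every control. The difference was 0.63 (SE 0.29, limma adjusted p = 0.121) with bur and 0.49 (SE 0.29, limma adjusted p = 0.229) with laser. The spread between arrays was thus far wider than that between spots.

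Ciita, the transactivator, was at -2.61, -2.52, -1.84 and -2.59 in control, at -2.05, -0.79, -1.51 and -2.07 in bur and at -2.00, -1.84, -1.58 and -2.24 in laser bone. Control replicate 3 stood well above the other controls and inside the range of the ablated arrays. The difference was 0.78 (SE 0.29, limma adjusted p = 0.0653) with bur and 0.47 (limma adjusted p = 0.249) with laser. Its other, dimmer probe differed by 0.19 with bur and by -0.22 with laser, so the probes disagreed in sign with laser; neither value passed (limma adjusted p = 0.66 and 0.614 over all probes).

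**Figure D1:**
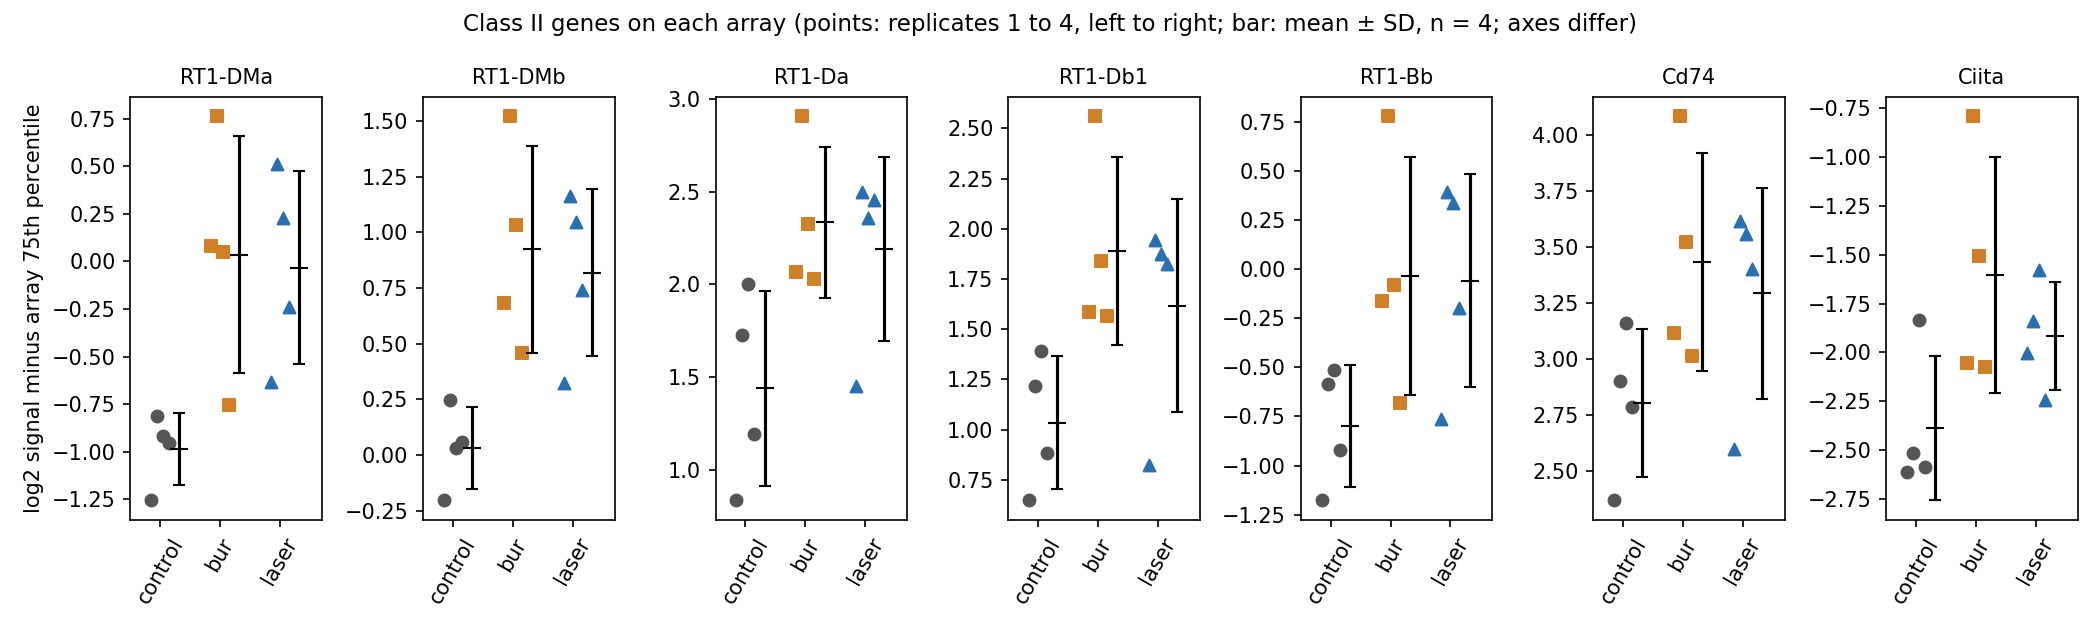
Level of each of the 7 measured class II genes on every array, as log2 signal minus the array's 75th percentile, for control (circles), bur (squares) and laser (triangles), with mean ± SD (n = 4); each panel has its own axis. For RT1-DMa and RT1-DMb every ablated array lies above every control array, while laser replicate 1 lies low in most panels.

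In all, the laser arrays did not overlap the controls for 2 of 7 genes (RT1-DMa and RT1-DMb), against 8.87% of all genes with every laser array above every control. The bur arrays did not overlap them for 4 of 7 (these and RT1-Da and RT1-Db1), against 9.60% of all genes. At an unadjusted limma p under 0.05, 4 of the 7 were higher with laser and 7 of 7 with bur, against 18.6% and 17.9% of all genes. In the authors' deposited tables, 5 of the 7 had an adjusted p under 0.05 in laser against control and 6 of 7 in bur against control, all higher, where 15.2% and 15.9% of the probes in the authors' deposited tables were called higher. The authors' deposited table gives RT1-DMb changes of 0.88 with laser and 0.93 with bur, and Ciita the smallest changes, 0.15 and 0.45. When the authors' deposited values were put through the limma fit used here, 2 of 7 rose in each comparison. In that fit 12.9% of all genes rose with laser and 13.8% with bur.

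The count of 2 rested on individual arrays. Deviations of same-numbered control and laser arrays correlated at 0.106 to 0.31, and those of different numbers at up to 0.11. Once replicate number entered as a block 4 of 7 rose with laser (RT1-DMa, RT1-DMb, RT1-Da and RT1-Bb), against 10.8% of all genes that rose in that fit. The block fit also holds the bur arrays, whose numbers were not taken to pair with control. Without laser replicate 1, the lowest laser array for 6 of the 7 genes, 5 rose with laser: RT1-DMa by 1.15, RT1-Da by 1.0, RT1-Bb by 0.98, RT1-DMb by 0.95 and RT1-Db1 by 0.85 (limma adjusted p = 0.0272, 0.0343, 0.0485, 0.0214 and 0.0389), against 8.56% of all genes that rose in that fit. None passed with laser without bur replicate 1 or 3, control replicate 1, 2 or 4, or laser replicate 2, 3 or 4, fits in which 1.98% to 7.75% of all genes rose. With bur, 5 passed without control replicate 3, where the share of all genes that rose was itself up at 16.7%, and 4 without laser replicate 1, where it was 9.71%. Only 1 passed with bur without bur replicate 1, control replicate 2 or control replicate 4, and 0 without bur replicate 2, bur replicate 3 or control replicate 1, fits in which 3.86% to 7.42% of all genes rose. With control and laser fitted alone, 0 of 7 passed with laser, against 2.87% of all genes.

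**Figure D2:**
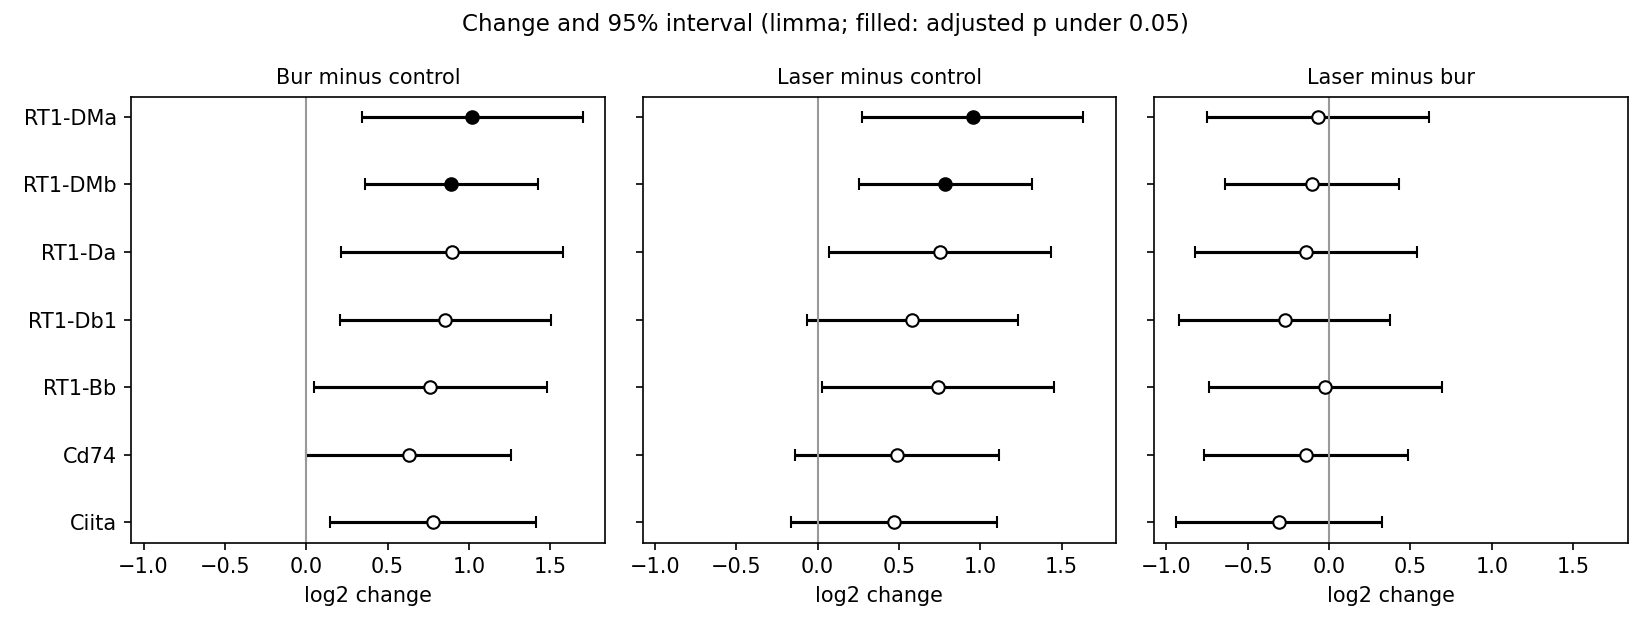
Change of each measured class II gene on the log2 scale with its 95% interval for bur minus control, laser minus control and laser minus bur (limma on all 12 arrays; filled points have an adjusted p under 0.05). RT1-DMa and RT1-DMb are filled in both comparisons with control, and every interval for laser minus bur spans 0.

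Laser and bur were compared to ask whether the way of cutting mattered. No class II gene passed the test: 0 of 7 had an adjusted p under 0.05, 0 had an unadjusted limma p under 0.05 and 0 an exact permutation p under 0.05, while 0% of all genes rose and 0% fell. The differences ran from -0.31 for Ciita to -0.02 for RT1-Bb (limma adjusted p = 0.9998 for each). Their 95% intervals reached down to -0.94 and up to 0.69, so a difference of that size is not excluded. For RT1-DMa the difference was -0.07 (interval -0.75 to 0.61) and for RT1-DMb -0.11 (interval -0.64 to 0.43). Without laser replicate 1 it turned positive for 5 of the 7, at 0.13 for RT1-DMa, 0.06 for RT1-DMb, 0.10 for RT1-Da, 0.21 for RT1-Bb and 0.09 for Cd74.

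The 7 genes moved together from array to array within each group. Control replicate 1 was the lowest control for 7 of 7 genes and control replicate 3 the highest for 5. Bur replicate 2 was the highest bur array for 7 of 7, and bur replicate 4 the lowest for 7 of 7. Laser replicate 1 was the lowest laser array for 6 of 7, and laser replicate 2 the highest for 6. As a description over these 12 arrays, each gene correlated with the mean of the others at a Pearson r of 0.841 (Ciita) to 0.975 (RT1-Bb), and at 0.742 to 0.979 for the same genes after the group means were removed. The arrays share their slides and groups, so these are not independent points.

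**Figure D3:**
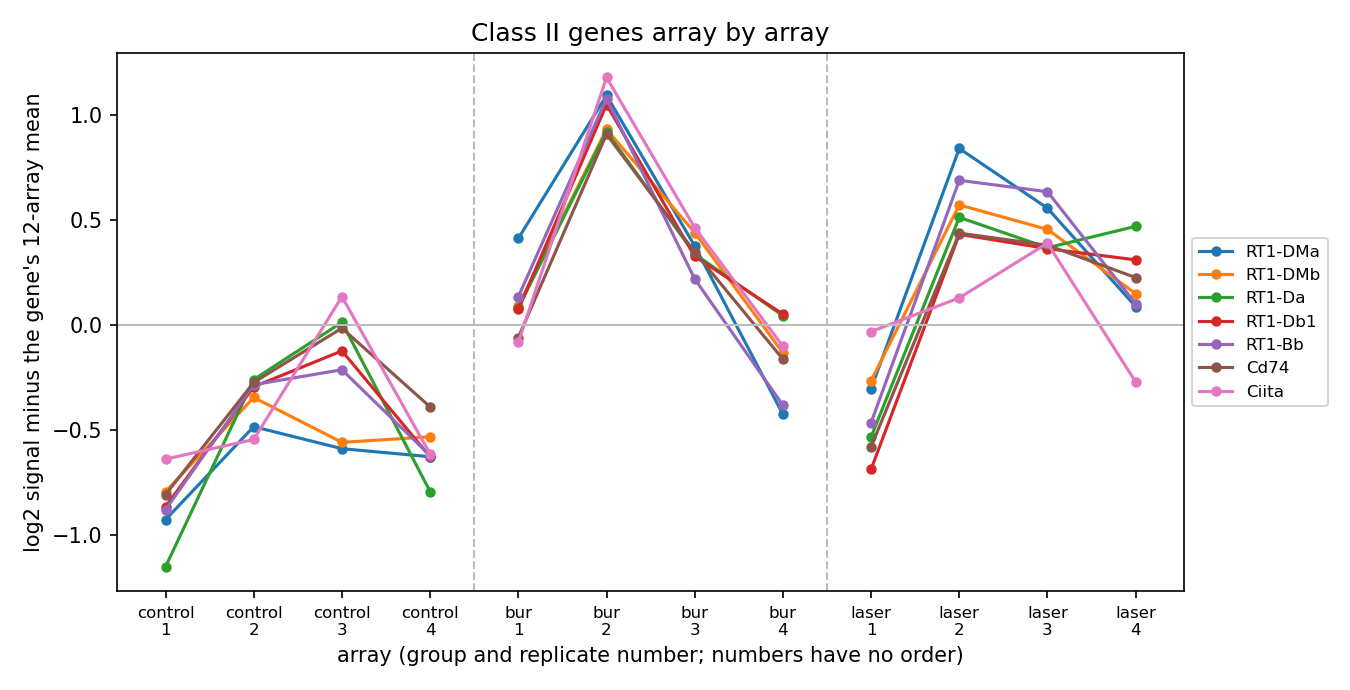
Each class II gene on each array, as log2 signal minus the gene's own mean over the 12 arrays, with lines joining the arrays of a group to guide the eye (replicate numbers have no order). The 7 lines run close together, peaking at bur replicate 2 and lowest at control replicate 1.

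Outside the 8 genes, the symbols whose pattern was most like the mean of the 7 over the 12 arrays were Ripk1 (Pearson r = 0.96), Fkbp15 (0.956), Pld3 (0.947), Tmem176b (0.946), RT1-Db2 (0.945) and Grn (0.945). After the group means were removed they were Ripk1 (0.942), Tmem176a (0.931), RT1-Db2 (0.928), Fkbp15 (0.928), Tmem176b (0.918) and Tmppe (0.914). The first list was picked for likeness to a mean that was itself higher in ablated bone. Higher values of its genes there were thus favoured by the choice and are given as description only. Grn is in the first list alone, while Ripk1, Fkbp15 and RT1-Db2 are in both. Ripk1, a kinase of TNF receptor signalling, rose by 0.48 with laser and by 0.55 with bur (limma adjusted p = 0.0438 and 0.0241). Fkbp15 rose by 0.77 and 0.84. Grn, which encodes the lysosomal protein progranulin, rose by 0.64 with bur and differed by 0.54 with laser (limma adjusted p = 0.0652, and 0.0173 with the replicate block). RT1-Db2 is a close copy of RT1-Db1, and whether their probes tell the copies apart was not tested. It was at -1.71, -0.99, -0.53 and -1.22 in control, -0.54, 0.33, -0.36 and -0.57 in bur and -1.38, -0.29, -0.40 and -0.38 in laser bone, and differed by 0.83 with bur (limma adjusted p = 0.0678).

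The DO pair restrains DM, and its 1 measured chain passed in neither comparison. RT1-DOb was at -4.14, -4.31, -4.34 and -4.25 in control, -4.39, -3.91, -4.24 and -4.85 in bur and -4.18, -4.56, -4.40 and -5.46 in laser bone. The groups overlapped, and it differed by -0.09 with bur (limma adjusted p = 0.829) and by -0.39 with laser (limma adjusted p = 0.3). RT1-DOa was well above background on 3 of 12 arrays (2 bur, 1 laser) and was not tested.

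Of 12 measured genes of class II processing and loading outside the 8, 3 rose and 0 fell with laser (9.26% of all genes rose). With bur 5 rose and 0 fell (9.99% of all genes rose). The median changes of the 12 were 0.43 and 0.58. The rest passed in neither comparison, among them Ctsb, which encodes cathepsin B, at 0.15 with laser and 0.44 with bur (limma adjusted p = 0.664 and 0.184). Ctsl, which encodes cathepsin L, rose by 1.18 (SE 0.31) with laser and 1.44 with bur, and Lgmn, which encodes legumain, rose by 1.34 (SE 0.41) and 1.65. Ctss, whose product cathepsin S removes most of the invariant chain in many antigen-presenting cells, rose by 0.98 with bur and differed by 0.87 with laser (limma adjusted p = 0.0648, and 0.0204 with the replicate block). Ctsd, which encodes cathepsin D, rose by 0.89 with bur and differed by 0.64 with laser (limma adjusted p = 0.0779, and 0.0321 with the block). With the block 5 of the 12 rose with laser, against 10.8% of all genes. The remaining gene that rose, named after its values were seen, was Ifi30, a thiol reductase gene of antigen processing, at 0.64 with laser and 0.73 with bur. With laser, the count was 1 without bur replicate 1 or 3 or control replicate 4, 0 without control replicate 1 or laser replicate 2, 3 or 4, and 6 without control replicate 3. With bur it was 2 without bur replicate 2, bur replicate 3 or control replicate 4, and 1 without control replicate 1.

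Regulators of class II transcription showed no common direction. Of 11 measured, 1 rose and 2 fell in each comparison, with medians of 0.14 and 0.05. These counts were near the shares of all genes. Those were 9.26% risen and 13.0% fallen with laser, and 9.99% and 16.2% with bur. Rfx5, a subunit of the complex that binds the X box, fell by 0.62 (SE 0.13, limma adjusted p = 0.0127) with laser and fell by 0.59 with bur. Crebbp, a histone acetyltransferase gene, fell by 0.59 with laser and fell by 0.71 with bur. Nfyc, a subunit of the Y box factor NF-Y, rose by 0.57 with laser and 0.53 with bur. Leaving out 1 array gave 0 to 1 risen in each comparison, 1 to 2 fallen with laser and 2 with bur; without control replicate 1 or 2 no regulator rose in either comparison.

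Interferon gamma is the classical inducer of Ciita. Its own gene, Ifng, and the target Ido1 were well above background on 0 of 12 arrays. Of 13 genes of its signalling and targets that were tested, Cxcl11 and Socs1 passed the detection filter through ablated arrays alone. That filter favours a higher value there, so the 2 are counted apart. Of the other 11, 2 rose with laser and 1 with bur and 0 fell, with medians of 0.07 and -0.01. Among all genes 9.26% rose with laser and 9.99% with bur. The chemokine gene Cxcl10 rose by 2.47 (SE 0.71) with laser and differed by 1.48 with bur (limma adjusted p = 0.137), and the kinase gene Jak2 rose by 0.60 and 0.59. Cxcl11, another chemokine gene, was well above background on 0 of 4 control arrays, 3 laser arrays and 2 bur arrays. With control floored, laser bone was 2.66-fold higher and bur bone 1.78-fold higher. Socs1, a feedback inhibitor of the pathway, was likewise dark in control and was well above background on 2 laser arrays. With control floored, laser bone was 1.56-fold higher for Socs1. The floor on each control array was its dimmest detected probe, or the probe's own signal if brighter. An undetected probe can lie above that floor and the ablated means include undetected arrays, so these folds are not strict lower bounds. With normexp background correction Cxcl11 turned to -0.15 with bur and Socs1 to -0.05 with laser. When each of the 12 arrays was left out in turn, Cxcl10 passed with laser in 7 of 12 fits. Jak2 passed in 9 of 12 fits with laser and in 12 of 12 with bur. Without laser replicate 3, 0 of the 13 rose with laser.

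Class I presentation is the route to CD8+ T cells. Of 20 measured genes of it, 0 rose and 3 fell with laser, and 2 rose and 4 fell with bur. Over all genes 9.26% rose and 13.0% fell with laser, and 9.99% rose and 16.2% fell with bur. The falls were thus near the shares of all genes. The class I genes RT1-CE5 and RT1-A2 fell by 2.50 and fell by 0.65 with laser (limma adjusted p = 0.00153 and 0.0239). They belong to a family of close copies that a probe may not tell apart. Nlrc5, the class I counterpart of Ciita, fell by 0.70 with laser and fell by 0.75 with bur (limma adjusted p = 0.0434 and 0.0306), and with the replicate block its adjusted p was 0.0636 with laser. Pdia3, a chaperone gene of the loading complex, rose by 0.92 with bur and differed by 0.60 with laser. Leaving out 1 array gave 0 to 1 risen and 1 to 4 fallen with laser, and 1 to 3 risen and 2 to 5 fallen with bur; without control replicate 1 or 4, 1 fell with laser and 2 with bur.

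The genes within the class II region of chromosome 20 (rn4, 4641104 to 4891189, a window chosen after the values were seen) included genes of both presentation routes. Of its 12 measured gene names, 7 were class II chain genes, and of these RT1-DMa and RT1-DMb rose. The other 5 include Tap1, Tap2, Psmb8 and Psmb9, which serve class I presentation; 0 of these 5 passed in either comparison, and the difference between the 2 of 7 and the 0 of 5 was not tested. Psmb8, the nearest to passing, differed by -0.42 with laser (limma adjusted p = 0.086) and by -0.41 with bur (limma adjusted p = 0.0867).

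**Figure D4:**
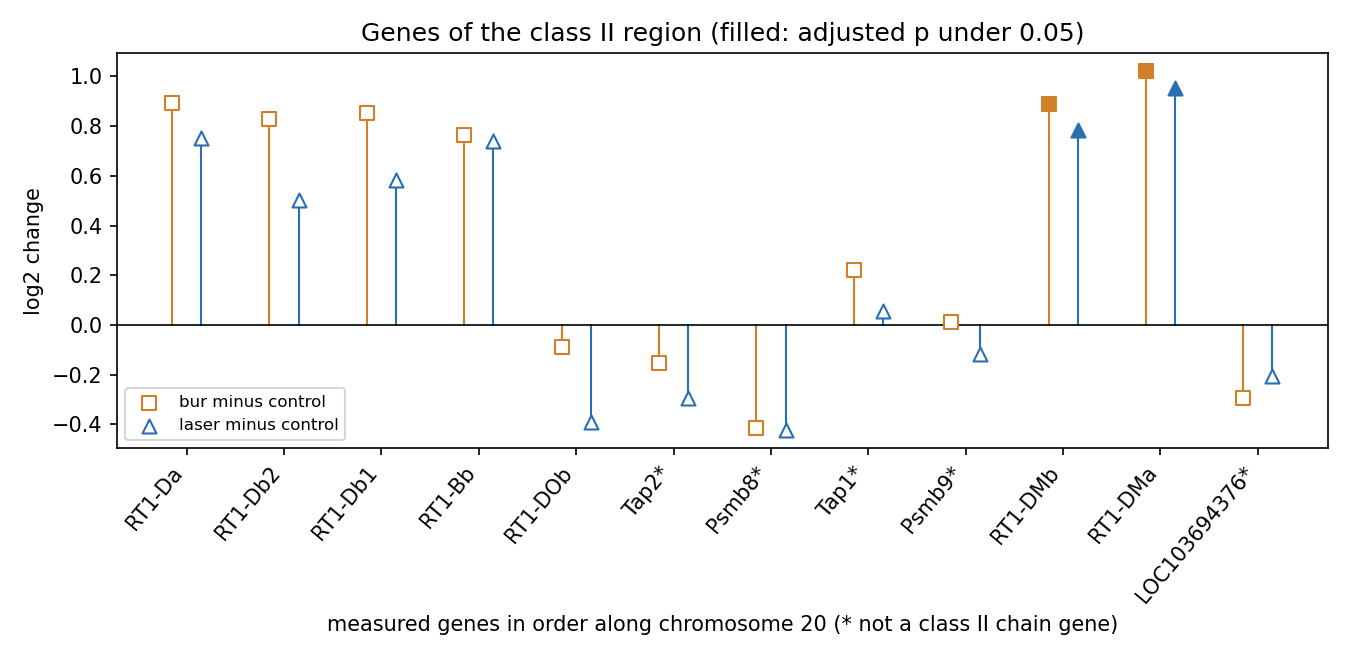
Log2 change of the 12 measured gene names of the class II region, in order along chromosome 20, for bur minus control (squares) and laser minus control (triangles); filled points have an adjusted p under 0.05 and asterisks mark genes that are not class II chains. The 4 genes at the left and RT1-DMb and RT1-DMa stand above 0.5, while those between them lie between -0.42 and 0.22.

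Of 7 costimulation ligand genes detected in control and ablated bone, 1 rose and 1 fell in each comparison. Among all genes 9.26% rose and 13.0% fell with laser, and 9.99% rose and 16.2% fell with bur. Tnfsf9, which encodes the 4-1BB ligand, rose by 1.19 with laser and 1.57 with bur. The remaining ligand gene, Pdcd1lg2, which encodes PD-L2, passed the detection filter through ablated arrays alone. That favours a higher value there, so Pdcd1lg2 is not counted. It was well above background on 0 of 4 control arrays, 2 laser arrays and 3 bur arrays. With control floored as above, laser bone was 1.14-fold and bur bone 1.13-fold higher, which again are not strict lower bounds. With normexp it turned to -0.29 with bur. Cd40 fell by 0.53 with laser and fell by 0.43 with bur, but averaged over its probes its change was 0.01 and 0.00. Of 5 ligands and co-receptors of CD74, Cd44 rose by 0.81 with laser and 0.94 with bur, and Cxcr2 fell by 1.90 and fell by 1.92. Mif, which encodes the cytokine MIF, rose by 0.64 with bur and differed by 0.54 with laser (limma adjusted p = 0.0531, and 0.0291 with the replicate block). Without control replicate 1 neither Cd40 nor Cxcr2 passed in either comparison.

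Markers of the cells that carry class II moved in different directions beside it. Their counts stand beside 9.26% of all genes risen and 13.0% fallen with laser, and 9.99% and 16.2% with bur. Of 18 monocyte and macrophage markers, 4 rose with laser and 6 with bur and 0 fell, with medians of 0.56 and 0.68; Cd14 rose by 1.79 and 2.03, Trem2 by 2.29 and 2.40 and Msr1 by 1.59 and 1.82, and Adgre1 rose by 1.22 with bur. With the replicate block 8 of the 18 rose with laser (10.8% of all genes did), adding Adgre1, Csf1r, Cx3cr1 and Mrc1 (limma adjusted p = 0.026, 0.0434, 0.0244 and 0.0483). Their summed linear level, in multiples of the array's 75th percentile, was 175 to 222 in control, 184 to 225 in bur and 205 to 212 in laser bone, which overlap. That sum is mostly the brightest signal, Lyz2 (control mean 7.14 on the log2 scale, the next being C1qb at 3.49). Lyz2 differed by -0.13 with laser and by -0.19 with bur, so the overlap says little about the other markers. The laser count was 2 without bur replicate 1, 1 without control replicate 1 or 4 or laser replicate 2, 3 or 4, and 7 without control replicate 3; the bur count was 3 without bur replicate 3 and 1 without control replicate 1. Of 13 B cell markers 0 rose and 7 fell in each comparison. Their summed level was 6.32 to 26.9 in control, 2.31 to 5.11 in bur and 2.80 to 5.99 in laser bone, with no overlap with control. The brightest signal in that sum was Cd22, which fell by 1.91 with laser and fell by 2.06 with bur.

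Of 14 measured dendritic cell markers, 0 rose, while 2 fell with laser and 1 with bur, with medians of -0.18 and 0.00. Among all genes 9.26% rose and 13.0% fell with laser, and 9.99% rose and 16.2% fell with bur. Dnase1l3 fell by 1.39 with laser and fell by 1.5 with bur, and Wdfy4 fell by 0.43 with laser (limma adjusted p = 0.0495, and 0.0742 with the replicate block, so that 1 fell). Xcr1, a defining marker of cross-presenting dendritic cells, was well above background on 0 of 12 arrays. The listed markers Clec9a, Batf3 and Irf8 were well above background on 10, 12 and 12 arrays. The dark Xcr1 probe thus does not show that such cells were absent. The summed level of the list was 9.60 to 10.6 in control, 8.17 to 13.2 in bur and 8.23 to 10.5 in laser bone. Its highest value, 13.2, was on bur replicate 2, which was also the highest bur array for all 7 class II genes. That array also had the highest bur sums of T cell (5.21), general leukocyte (72.5) and marrow markers (217). The macrophage sum was highest on bur replicate 3 (225) and the B cell sum on bur replicate 4 (5.11). The brightest dendritic marker in bur bone was Clec10a (mean 1.40, highest 2.66 on the log2 scale). Without control replicate 1, 0 dendritic markers fell in either comparison.

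Of 11 T cell markers, 1 rose and 4 fell with laser, and 1 rose and 5 fell with bur. This and the other counts here stand beside 9.26% of all genes risen and 13.0% fallen with laser, and 9.99% and 16.2% with bur. Cd3e fell by 1.95 and fell by 1.48, while Cd8a rose by 1.44 with bur. With the replicate block 2 of the 11 T cell markers rose with laser, against 10.8% of all genes. Their summed level was 4.12 to 5.10 in control, 3.25 to 5.21 in bur and 3.25 to 4.53 in laser bone. Of 8 general leukocyte markers 0 rose and 3 fell in each comparison, including Cd52, which fell by 2.35 with laser and fell by 2.44 with bur. Of 13 erythroid and neutrophil marrow markers 0 rose, while 10 fell with laser and 9 with bur; Alas2 fell by 2.46 and fell by 2.75. Of 12 osteocyte and osteoblast markers 7 rose with laser and 2 with bur and 0 fell, with Dmp1 at 1.56 and Phex at 1.62 with laser. Leaving out 1 array moved these counts widely: the marrow markers that fell numbered 0 to 13 with laser and 1 to 13 with bur, and the B cell markers 1 to 9 and 2 to 9. The part of any of these marker lists in the class II differences was not tested.

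**Figure D5:**
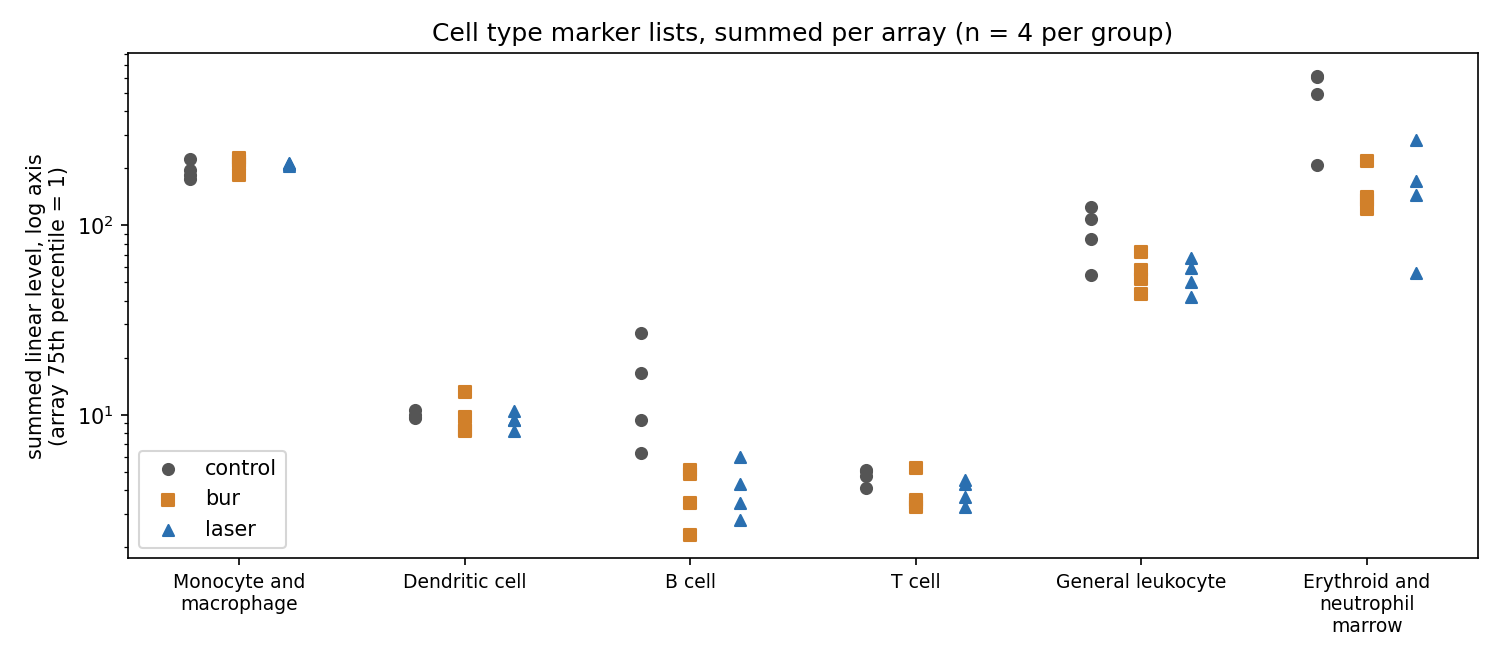
Summed linear level of 6 marker lists on each array, in multiples of the array's 75th percentile on a log axis, for control (circles), bur (squares) and laser (triangles), 4 arrays each. B cell markers of all ablated arrays lie below all controls (2.31 to 5.99 against 6.32 to 26.9), while monocyte and macrophage markers and dendritic cell markers overlap between groups. A sum is weighted to its brightest genes, such as Lyz2 in the monocyte and macrophage list and Cd22 in the B cell list.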

How the data were processed

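For each of 12 Agilent arrays of 1 colour the authors deposited linear spot intensity. The scanner software, per the file headers, was Feature Extraction 11.0.1.1 (Agilent), and 200 ng of total RNA went into labelling per the labels' protocols. Processed intensity had the background subtracted within each array, with no step between arrays. Further files from the authors hold deposited log2 values named as quantile-normalized, with column medians of 7.16 to 7.30, and tables of log2 changes and adjusted p-values; the steps between are not given in the sources used here.

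Levels were log2 processed intensity minus the log2 of each array's 75th percentile. Outlier-flagged spots were left out, spots of a probe were averaged, and 0 spots were saturated. Of 45598 probes, 29775 were well above background on at least 4 of 12 arrays, and the brightest stood for its gene name. limma 3.58.1 in R 4.3.3 (lmFit and eBayes, two-sided, all 12 arrays, a mean per group) gave changes, with p-values adjusted over 22718 genes and a threshold of 0.05; the fit was tested on simulated data. The number of arrays limits the precision.

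Deviations of arrays with the same number from the mean of their group correlated at 0.234, 0.239, 0.145 and 0.328 between bur and laser and at 0.31, 0.155, 0.228 and 0.106 between control and laser, but at 0.251, -0.0543, 0.271 and 0.0653 between bur and control. By the rule that all pairs exceed 0.1, numbers were taken to pair laser with control and laser with bur, but not bur with control. Arrays of different numbers reached 0.144, 0.11 and 0.325, so control and laser replicate 4, at 0.106, did not exceed them.

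The 8 genes and all gene lists were chosen with earlier results of these data known. Named from each list were up to 4 genes past the threshold with the largest change, and outside the lists the 6 symbols most like the mean of the 7 measured genes, with and without group means. Alternatives were the background correction, scaling, filter, probe averaging, array weights, fits of 2 groups alone, the replicate block, the authors' deposited values, exact permutation tests and leaving out each array. The level of 1 listed gene is not reported here.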

Additional observations from a re-analysis of the deposited data

Results flagged for a closer look

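In 27 sets of 4 arrays (9 class II genes in 3 groups), 4 had an array whose gap to its nearest neighbour was above Dixon's 95% critical share of the whole range; chance gives about 1 in 20. Of these, 3 were laser replicate 1, which was low for RT1-Da at 1.45, for RT1-Db1 at 0.82 and for its close copy RT1-Db2 at -1.38 on the log2 scale. The remaining one was control replicate 3, high for Ciita at -1.84.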

How the results depend on the processing

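In each comparison with control, the 7 measured genes had a positive change in 154 of 154 gene-by-setting fits. These fits reuse the same arrays and are not independent. Leaving out an array of the third group, adding the replicate block or fitting 2 groups alone cannot move the change itself. The sizes moved as well as the calls, most for Ciita with laser (0.13 to 0.65) and Cd74 with laser (0.34 to 0.72), and the other probe of Ciita, not among these fits, was at -0.22 with laser. The count past the threshold was 2 in each comparison as reported. In bur against control it became 5 with array weights, where 16% of all genes rose. It became 4 with detection on all 12 arrays (11.5% of all genes rose), normexp (7.25%), the percentile over detected probes (12.9%) and quantile normalization (13%). It ranged from 0 to 5 when 1 array was left out, fits in which 3.86% to 16.7% of all genes rose. With no detection filter it was 3 in bur against control, of which 1 was the dark probe of RT1-Ba, called lower. In that fit 6.04% of all genes rose. In laser against control it became 1 with normexp (5.23% of all genes rose), 0 with no detection filter (3.43%) and 0 with the 2 groups fitted alone (2.87%). It was 0 to 5 when 1 array was left out, fits in which 1.98% to 17% of all genes rose. With the replicate number as a block it was 4 in laser against control, where 10.8% of all genes rose. It was 7 with the block in bur against control, where 11.5% of all genes rose and the numbers were not taken to pair the arrays. In laser against bur it was 0 in every setting. The cause of these moves was not tested, beyond the fewer arrays or other genes tested that a setting itself brings.

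Normexp moved the median of all genes to -0.24 in bur against control and to 0.13 in laser against bur. Calls over all genes in bur against control went from 2270 higher and 3678 lower to 1647 and 6286 with normexp, and to 2108 and 5750 with no detection filter. Genes called higher went from 2103 to 1188, 1199, 651 and 3534 in laser against control (normexp, no filter, 2 groups alone, array weights), and to 1483 and 3631 in bur against control (2 groups alone, array weights). Leaving out 1 array gave 449 to 3861 and 878 to 3794.

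Signs turned for Cd40 averaged over its probes (0.0032 with bur, 0.010 with laser), and with normexp for Cxcl11 (-0.15) and Pdcd1lg2 (-0.29) with bur and Socs1 (-0.048) with laser. In laser against bur, RT1-Bb was 0.058 with array weights, and leaving out 1 array gave -0.28 to 0.089 for Cd74, -0.24 to 0.25 for RT1-Bb, -0.33 to 0.17 for RT1-DMa, -0.26 to 0.095 for RT1-DMb and -0.24 to 0.10 for RT1-Da. RT1-Ba and RT1-DOa are limited by signal near background.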
